A study of Mus musculus with 6 samples.

Results

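The genes described here are 37 genes of the lysosome, its proton pump and endocytosis, chosen by symbol from the 46603 genes counted in the series. They were matched by the gene names of the deposited FPKM tables, and all 37 had a row in every count table. They fall into 13 hydrolases, 2 lipid-binding proteins of the lysosomal lumen, 8 lysosomal membrane proteins, 5 genes of the vacuolar proton pump (V-ATPase) and 9 genes of clathrin, its adaptor and the endosomal Rab system. RNA came from enamel organ cells of the lower incisor of C57BL/6 mice, with 3 libraries of Stim1/2 knockout mice (DKO 1, 3 and 4) and 3 of wild-type mice (WT 1, 2 and 3). STIM1 and STIM2 sense calcium in the endoplasmic reticulum and open store-operated calcium channels, and the series title asks what this calcium entry does for ameloblasts. The sources used here do not give the age of the mice, the driver of the deletion or the number of animals behind a library. The p-values therefore measure only the spread between these samples.

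Ameloblasts first secrete the protein matrix of enamel and later, in the maturation stage, take back fragments of that matrix while the mineral grows. Material taken up through clathrin-coated pits passes through early and late endosomes to lysosomes, where hydrolases digest it. The V-ATPase pumps protons into these compartments and gives the hydrolases the acid they need, and maturation-stage ameloblasts are known for carrying proton pumps at their ruffled border.

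Many lysosomal genes carry a short E-box sequence near their start, read by the transcription factor TFEB and its relatives. Its core, TCACGTGA, reads the same on both strands and contains the shorter E-box CACGTG. Promoters of 300 bases, from 250 before to 50 after the transcript start, were taken from RefSeq on GRCm38.p6, and 33 of the 37 genes had one. TCACGTGA stood in the promoter of 7 of the 33 genes, or 21.2%, against 1.125% of all 27025 genes with a promoter entry. CACGTG stood in 11 of the 33, or 33.3%, against 8.093% of all genes. The windows below show, for 6 of the 7 genes, 30 bases around each match, 5′ to 3′ on the strand of the gene, with TCACGTGA in capitals. They are shown because this sequence occurred in genes of different roles in this set, although most of the 33 genes lacked it.
Ctsa (chr2:164833743-164833772, plus strand): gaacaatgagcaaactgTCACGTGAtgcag
Ctsd (chr7:142387908-142387937, minus strand): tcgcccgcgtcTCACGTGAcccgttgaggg
Gla (chrX:134601215-134601244, minus strand): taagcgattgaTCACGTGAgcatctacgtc
Gla (chrX:134601182-134601211, minus strand): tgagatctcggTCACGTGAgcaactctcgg
Mcoln1 (chr8:3500462-3500491, plus strand): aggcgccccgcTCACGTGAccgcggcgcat
Atp6v1a (chr16:44139373-44139402, minus strand): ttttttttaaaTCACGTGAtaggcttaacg
Rab5a (chr17:53479127-53479156, plus strand): acccggggatgTCACGTGActtcggccccg

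The first base of the match lay at -13 from the RefSeq start for Ctsa, -99 for Ctsd, -228 and -195 for Gla, -46 for Mcoln1, -132 for Atp6v1a and -96 for Rab5a. The windows of Ctsa, Ctsd, Gla and Mcoln1 also lie within annotated exons in GENCODE vM21. Both Gla windows lie outside the Gla gene as annotated there (chrX:134588149-134601125), so the exons around them are those of another gene entry. The match of the remaining gene, Atp6v0d1, did not lie wholly before its transcript start, so no window is shown for it. A match describes letters in a window, not binding.

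The 6 libraries held from 18609759 to 22829411 counts. Stim1 stood at 29.6% and Stim2 at 46.8% of the WT mean in DKO, and both were called lower by edgeR (adjusted p = 0.00553 and 0.018). Across the table, edgeR called 153 of 14721 tested genes at an adjusted p below 0.05, or 1.04%. Krt14, an epithelial keratin, stood at 3747 to 4564 CPM (counts scaled to library size with TMM) in WT and at 2851 to 3028 CPM in DKO. Its partner keratin Krt5 stood at 4107 to 4730.4 CPM in WT and at 2878 to 3173 CPM in DKO. Neither keratin was called by edgeR (adjusted p = 0.147 and 0.108), and the part of their difference in the values that follow was not tested. Markers of ameloblasts, mesenchyme, endothelium and leukocytes were also present, so the RNA was that of a mixed tissue, in which fewer cells of a type and less RNA per cell cannot be told apart.

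Of the 37 genes, 36 were expressed well enough to be tested and none was called by edgeR between DKO and WT. The smallest adjusted p was 0.129, for Ctsz. At an unadjusted p below 0.05, 9 of the 36 stood out, 7 of them higher and 2 lower in DKO, which is 25% against 18.0% of all tested genes. The 3 DKO libraries all lay above the 3 WT libraries for 10 of the 36 genes, against 11.4% of all tested genes, and all below them for 1 gene, Scarb2, against 11.8%. DESeq2's Wald test called 3 of the genes, Ctss and Ctsl higher and Scarb2 lower, while it called 5.53% of the 14948 genes to which it gave an adjusted p. The median log2 fold change over the 36 genes was 0.05, next to -0.01 over all tested genes. It was 0.00 when libraries were scaled by their total counts. Together the tested genes took from 1.12% to 1.21% of the counts in WT and from 1.12% to 1.23% in DKO, so their summed share overlapped between the groups.

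Levels can be compared between genes on the deposited FPKM scale, which corrects for transcript length. This scale depends on the transcript lengths assumed, as FPKM was over 3 times the count per kilobase of annotated exon for Rab11a (4.77 times), Cd63 (4.69), Mcoln1 (3.93), Ctsh (3.74), Cltb (3.35), Ctsl (3.28) and Lamp2 (3.18). For Psap, Ctsd, Lamp1, Gla and Eea1 the ratio lay between 1.01 and 1.17. The highest mean over the 6 libraries was that of Psap, at 563 FPKM, followed by Ctsd at 408 and Lamp1 at 405. The lowest of the tested genes were Eea1 at 3.67 FPKM and Gla at 4.96. By CPM per kilobase of exon Eea1 was again the lowest, at 3.24, but Ctsh, at 4.45, stood below Gla, at 4.86. Libraries of a group agreed closely, with a median coefficient of variation over the 36 genes of 8.05% in WT and 5.15% in DKO. Over all tested genes these were 11.1% and 9.53%.

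**Figure D1:**
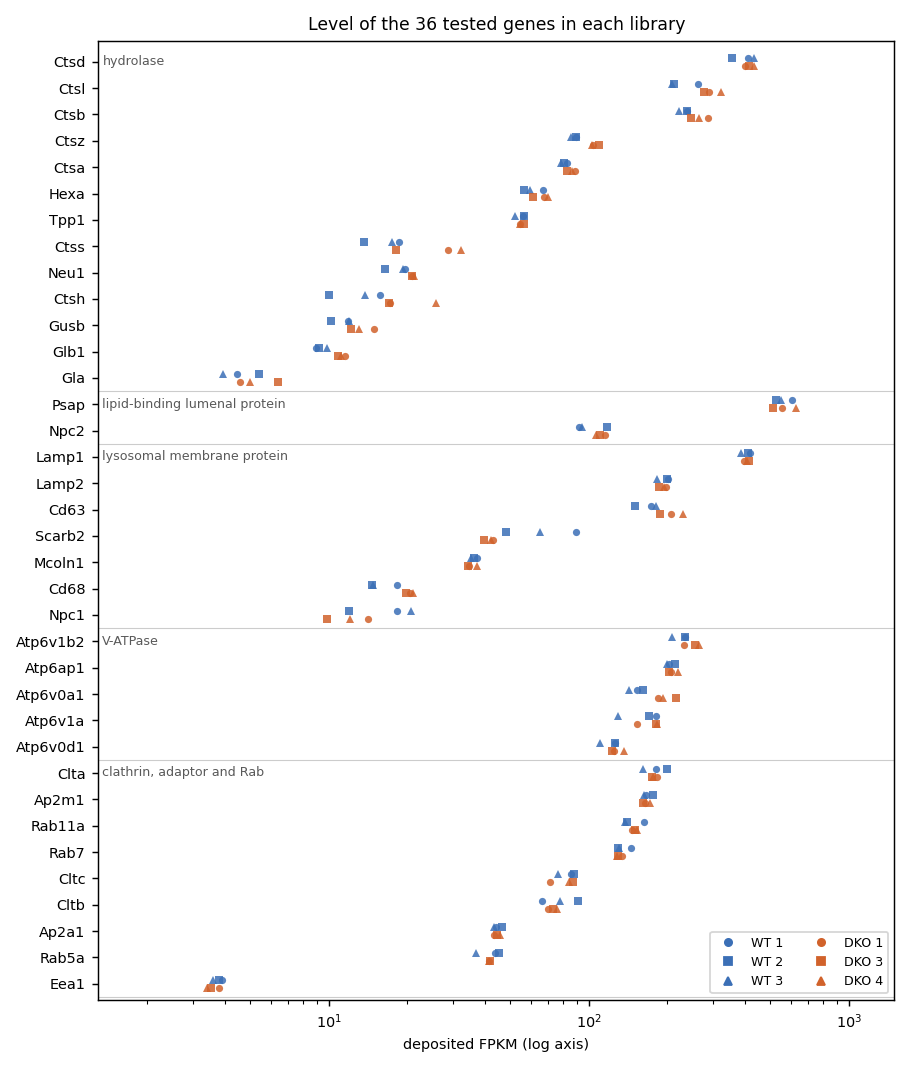
Deposited FPKM (log axis) of the 36 tested genes in each of the 6 libraries, ordered by role and then by level, with WT in blue and DKO in orange. Psap, Ctsd and Lamp1 lie near 400 FPKM or above and Eea1 and Gla below 10, and for most genes the 6 points lie close together.

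The roles differed in where their fold changes lay. All 13 hydrolases had a log2 fold change above 0, with a median of 0.21, and with total-count scaling 11 of the 13 did. The 5 V-ATPase genes were also all above 0, with a median of 0.14 (4 of the 5 with total counts). The 7 tested membrane proteins split 4 above and 3 below, with a median of 0.01 and the widest spread of any role, from -0.69 to 0.37. Of the 9 clathrin, adaptor and Rab genes 7 lay below 0, with a median of -0.02 and no value beyond -0.13, and with upper-quartile scaling 4 did. The median hydrolase, set against the WT mean on the log2 CPM scale, stood at 0.03, -0.07 and 0.01 in WT 1, 2 and 3 and at 0.20, 0.11 and 0.19 in DKO 1, 3 and 4. This was the one role among the 4 larger ones in which the libraries of the groups did not overlap. As a share of all counts, which the most abundant genes dominate, the hydrolases did overlap, at 0.306% to 0.342% in WT and 0.330% to 0.370% in DKO. The V-ATPase median was 0.05, 0.09 and -0.13 in WT and 0.02, 0.24 and 0.23 in DKO, so DKO 1 lay among the WT libraries.

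**Figure D2:**
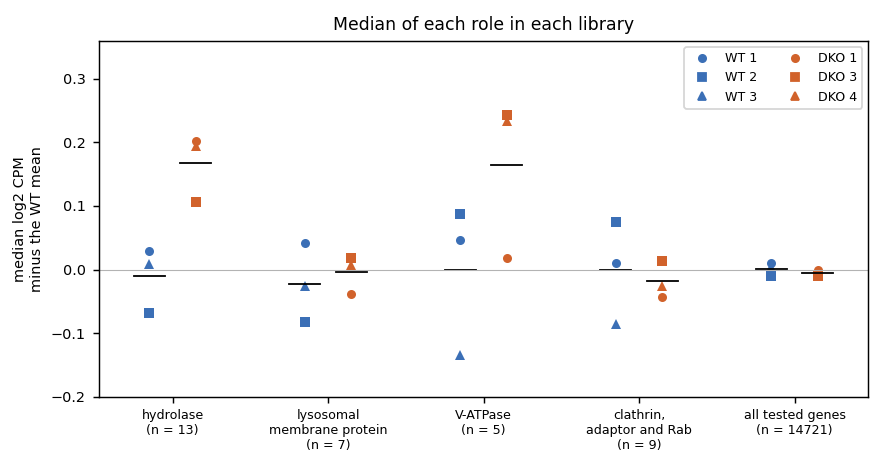
Median over the genes of each role of the log2 CPM minus that gene's WT mean, for each library, with black lines at the group means. The DKO libraries stand above all WT libraries for the hydrolases and overlap them for the other roles and for all 14721 tested genes.

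Among the hydrolases, which digest proteins, sugars and lipids in the lysosome, the 3 with the smallest p were the cysteine cathepsins Ctsz, Ctss and Ctsl. Ctsz (ENSMUSG00000016256, GRCm38 chr2:174427493-174439039, minus strand), a carboxypeptidase, stood at 123, 125 and 118 CPM in WT 1, 2 and 3 and at 140.1, 156 and 142 CPM in DKO 1, 3 and 4. Every DKO library lay above every WT library, and the means were 122 ± 3.83 and 146 ± 8.72 CPM (SD, n = 3 each). The log2 fold change was 0.26 (± 0.07 SE with adjusted p = 0.129 by edgeR), with a 95% interval from 0.10 to 0.43.

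Ctsl (ENSMUSG00000021477, chr13:64359337-64370890, minus strand), an endopeptidase of most lysosomes, stood at 519, 429.8 and 410.2 CPM in WT and at 562, 569 and 637 CPM in DKO. The groups did not overlap, although WT 1 lay close to the lowest DKO library. Its log2 fold change was 0.38 (± 0.12 SE with adjusted p = 0.169 by edgeR, and 0.0306 with DESeq2). Ctsb, a cysteine cathepsin that cuts proteins both internally and from the end, stood at 1187, 1215 and 1106 CPM in WT and at 1422, 1283 and 1334 CPM in DKO, a log2 fold change of 0.20 (± 0.11 SE with adjusted p = 0.363 by edgeR).

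Ctss (ENSMUSG00000038642, chr3:95526786-95556403, plus strand), a cathepsin best known from antigen-presenting leukocytes, had the highest fold change of the set. It stood at 23.9, 17.9 and 22.3 CPM in WT and at 36.6, 24.3 and 41.4 CPM in DKO. DKO 3 came close to WT 1, and the other 2 DKO libraries lay well above. The log2 fold change was 0.67 (± 0.20 SE with adjusted p = 0.152 by edgeR, and 0.0267 with DESeq2), with a 95% interval from 0.21 to 1.14. Ctsh, an aminopeptidase also abundant in leukocytes, stood at 17.1, 15.8 and 19.6 CPM in WT and at 20.3, 18.0 and 29.4 CPM in DKO. Its groups overlapped.

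Macrophage and leukocyte markers lay on the same side as these genes, and neutrophil markers on the other. That side was not particular to leukocytes. All 10 mesenchymal markers lay above 0 (median 0.34, none called), and so did 9 of 10 endothelial markers (median 0.28). Among the endothelial markers Plvap was called higher (log2 fold change 0.61, edgeR adjusted p = 0.0475). Of 18 macrophage and leukocyte markers, among them Ptprc, Csf1r and C1qa, 17 had a log2 fold change above 0, none was called, 9 had an unadjusted p below 0.05 and their median was 0.52. Their summed level ran from 248 to 378 CPM in WT and from 364 to 553 CPM in DKO. Set against that sum, Ctss stood at 7.45, 7.23 and 5.89 CPM per 100 CPM of markers in WT and at 7.83, 6.67 and 7.48 in DKO, so the groups overlapped. On this scale Ctsz ran from 31.1 to 50.4 in WT and from 25.7 to 42.9 in DKO. Ctsh ran from 5.19 to 6.35 in WT and from 4.34 to 5.32 in DKO. All 9 tested neutrophil markers had a log2 fold change below 0, with a median of -1.32 and none called. Their summed level ran from 3.56 to 84.2 CPM in WT and from 12.1 to 27.5 CPM in DKO. The part of leukocyte, endothelial or mesenchymal RNA in the hydrolase values was not tested.

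Ctsd, the aspartic cathepsin and the hydrolase with the highest FPKM, stood at 866, 771 and 915 CPM in WT and at 829, 913 and 908 CPM in DKO. The groups overlapped, and the log2 fold change of 0.05 (± 0.11 SE with adjusted p = 0.838 by edgeR) had a 95% interval from -0.20 to 0.31. Tpp1, a peptidase that takes tripeptides off protein ends, had a log2 fold change of 0.00 (SE 0.08), and its sign turned with total-count scaling.

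The enzymes that trim sugars from glycoproteins and glycolipids were Glb1 (a beta-galactosidase), Gla (an alpha-galactosidase), Gusb (the beta-glucuronidase), Hexa (a hexosaminidase subunit) and Neu1 (a sialidase). Glb1 stood at 21.0, 22.1 and 22.9 CPM in WT and at 25.9, 26.4 and 25.2 CPM in DKO, without overlap, a log2 fold change of 0.23 (± 0.08 SE with adjusted p = 0.195 by edgeR). Gla stood at 14.6, 15.5 and 12.1 CPM in WT and at 14.9, 21.8 and 16.3 CPM in DKO, where only DKO 3 and DKO 4 exceeded all WT libraries. Its log2 fold change was 0.33 (± 0.17 SE with adjusted p = 0.351 by edgeR), and 0.15 without DKO 3. The fold changes of Gusb, Neu1 and Hexa were 0.21, 0.13 and 0.12 on the log2 scale, with edgeR adjusted p from 0.318 to 0.474, and 0.14, 0.06 and 0.08 without WT 2. Ctsa, a carboxypeptidase that also shields Glb1 and Neu1 in a complex, was among the steadiest genes, at 136, 132 and 135 CPM in WT and 139, 140.0 and 137 CPM in DKO. It had a log2 fold change of 0.05 (SE 0.06), and with total-count scaling of 0.00 with the opposite sign.

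The 2 lipid-binding proteins of the lumen did not separate the groups. Psap, the precursor of the saposins that present lipids to hydrolases, stood at 1631, 1455 and 1487 CPM in WT and at 1481, 1441 and 1701 CPM in DKO, a log2 fold change of 0.02 (± 0.12 SE with adjusted p = 0.959 by edgeR) that was below 0 with total-count scaling. Npc2, which binds cholesterol and hands it to Npc1, stood at 309, 405 and 317 CPM in WT and at 384, 389 and 361 CPM in DKO. WT 2 was the highest of all 6 libraries for Npc2, and the log2 fold change was 0.14 (± 0.12 SE with adjusted p = 0.598 by edgeR). It was 0.27 without WT 2 (edgeR adjusted p = 0.202) and 0.07 without WT 1.

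**Figure D3:**
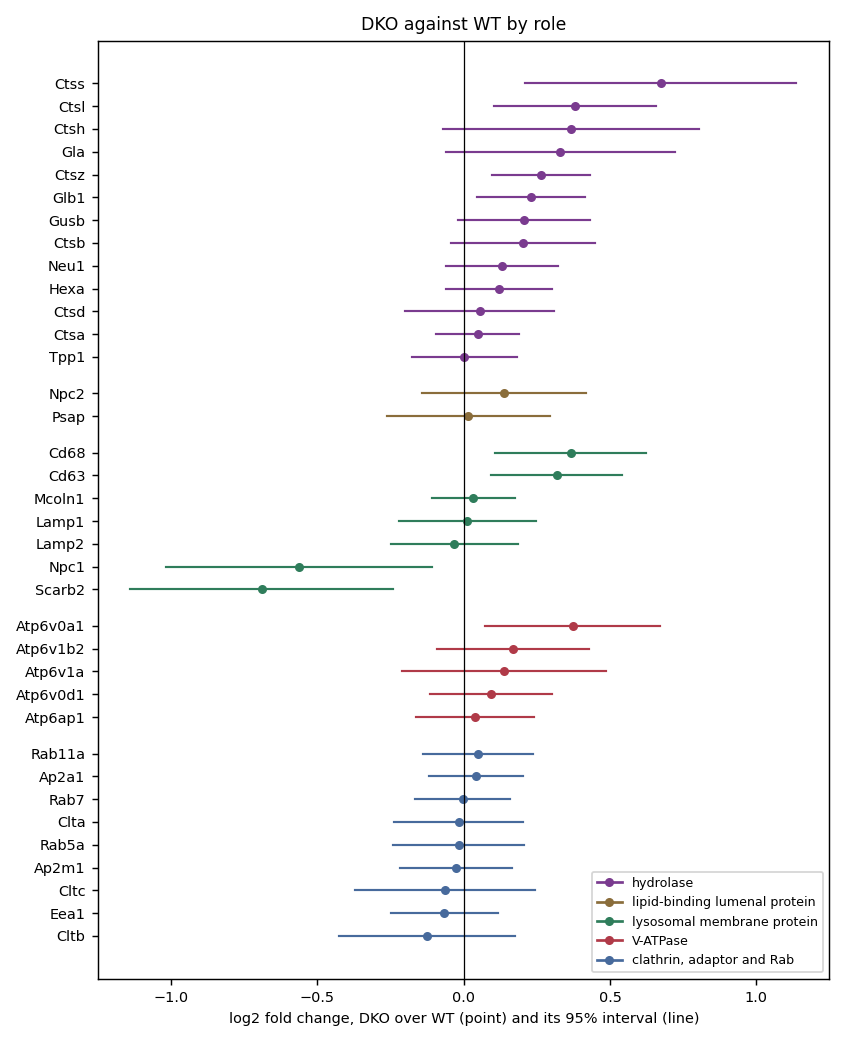
Log2 fold change, DKO over WT, of the 36 tested genes (points) with its 95% interval (lines), grouped by role. The hydrolases and V-ATPase genes lie at or to the right of 0, the clathrin, adaptor and Rab genes lie close to 0, and Scarb2 and Npc1 lie farthest to the left.

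The lysosomal membrane proteins held the genes with the lowest fold changes. Scarb2 (ENSMUSG00000029426, chr5:92441314-92506833, minus strand) encodes LIMP-2, the receptor that carries glucocerebrosidase to the lysosome. It stood at 437, 241 and 321 CPM in WT and at 209, 203 and 207 CPM in DKO. The 3 DKO libraries lay close together and all below WT, whereas the WT libraries were spread, with WT 2 nearest to DKO. The WT mean was 333 ± 98.3 CPM and the DKO mean 206 ± 3.01 CPM (SD, n = 3 each), a log2 fold change of -0.69 (± 0.19 SE with adjusted p = 0.137 by edgeR) with a 95% interval from -1.14 to -0.24. It was called when WT 2 was left out (edgeR adjusted p = 0.0279, log2 fold change -0.88), with no low-count filter (0.0473) and with DESeq2 (0.0086), and was not called under the other 15 alternatives (adjusted p up to 0.40). The fit without WT 2 called 2.23% of 15046 genes and the one with no low-count filter 2.19% of 25264. Without WT 1 the log2 fold change was -0.44.

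Npc1, which moves cholesterol out of the lysosome, stood at 93.6, 61.7 and 104 CPM in WT and at 68.5, 50.5 and 56.3 CPM in DKO. WT 2 was the lowest WT library here as well and lay below DKO 1, so the groups overlapped. Its log2 fold change was -0.56 (± 0.20 SE with adjusted p = 0.197 by edgeR). Leaving out WT 2 gave -0.75 and a call (edgeR adjusted p = 0.0395). The markers of maturation-stage ameloblasts did not share a direction. Of the 9 in the list 5 lay above 0, of which Car6 and Gm1045 were called higher (log2 fold changes 0.62 and 1.19, edgeR adjusted p = 0.0351 and 0.0135), and 4 lay below with none called. WT 2 was the highest WT library for Klk4, Amtn and Slc24a4, and the lowest for Wdr72, Gm17660 and Slc26a4. Odam, the remaining marker below 0 (log2 fold change -0.47), stood at 19410, 13433 and 13209 CPM in WT, with WT 3 lowest. In DKO Odam ran from 10429 to 12231 CPM. For Car6 and Gm1045 WT 2 lay between the other WT libraries. Wdr72 stood at 324, 208 and 249 CPM in WT and from 159 to 205 CPM in DKO. Gm17660 stood at 601, 174 and 380.2 CPM in WT and from 55.7 to 120.1 CPM in DKO, and Slc26a4, an anion exchanger, at 17.4, 2.42 and 32.6 CPM in WT and at most 2.03 CPM in DKO. These markers were named after their values were seen. The summed level of all 9 overlapped between the groups, from 20946 to 28050.4 CPM in WT and from 22786.5 to 27225 CPM in DKO. The part of the mix of ameloblast stages in the values of Scarb2 and Npc1 was not tested.

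Cd63 (ENSMUSG00000025351, chr10:128900989-128912822, plus strand), a tetraspanin of late endosomes and lysosomes, stood at 135, 119.5 and 141 CPM in WT and at 159.6, 153 and 181 CPM in DKO. The groups did not overlap, and the log2 fold change was 0.32 (± 0.10 SE with adjusted p = 0.157 by edgeR). Cd68 (ENSMUSG00000018774, chr11:69664213-69666153, minus strand), a lysosomal protein widely used to mark macrophages, stood at 21.3, 17.4 and 16.9 CPM in WT and at 23.3, 23.3 and 24.9 CPM in DKO. Its groups did not overlap either, with a log2 fold change of 0.37 (± 0.11 SE with adjusted p = 0.161 by edgeR). Per 100 CPM of the leukocyte markers above, Cd68 ran from 4.48 to 6.99 CPM in WT and from 4.50 to 6.40 CPM in DKO. On the same scale Cd63 ran from 37.3 to 48.2 CPM in WT and from 32.7 to 41.9 CPM in DKO. Whether the Cd63 and Cd68 values follow leukocyte RNA was not tested.

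**Figure D4:**
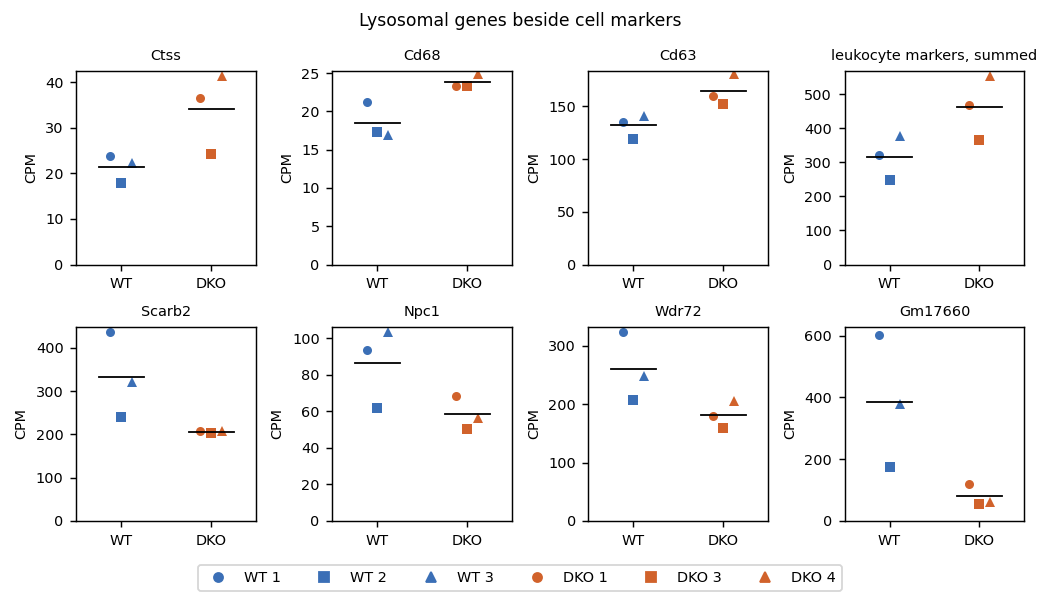
CPM of Ctss, Cd68, Cd63, Scarb2 and Npc1 in each library, beside the summed CPM of the 18 leukocyte markers and the CPM of Wdr72 and Gm17660 (black lines, group means, every axis from 0). Ctss, Cd68 and Cd63 lie higher in the DKO libraries, and for Scarb2, Npc1, Wdr72 and Gm17660 WT 2 is the lowest WT library. Wdr72 and Gm17660 were picked after their values were seen. Of the 9 maturation-stage markers 5 lay above 0, and WT 2 was the highest WT library for Klk4, Amtn and Slc24a4, which are not drawn.

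The abundant glycoproteins of the lysosomal membrane had fold changes close to 0. Lamp1 stood at 947, 954 and 873 CPM in WT and at 887, 982 and 928 CPM in DKO, a log2 fold change of 0.01 (± 0.10 SE with adjusted p = 0.963 by edgeR, 95% interval from -0.22 to 0.25) that was below 0 with total-count scaling. Lamp2, its relative and the receptor of chaperone-mediated autophagy, stood at 607, 620.3 and 544 CPM in WT and at 574, 581 and 578 CPM in DKO. Its log2 fold change was -0.03 (SE 0.09), and above 0 in 2 of the 19 fits. Mcoln1, the lysosomal calcium channel TRPML1, varied little between the libraries, at 68.3, 69.3 and 67.0 CPM in WT and 67.7, 69.0 and 72.6 CPM in DKO. Its log2 fold change of 0.03 (± 0.06 SE with adjusted p = 0.823 by edgeR) had a 95% interval from -0.11 to 0.18, and it turned below 0 with total-count scaling. Lamp3 (ENSMUSG00000041247, chr16:19653378-19706375, minus strand), a family member of dendritic cells and lung, had 0 counts in all 6 libraries. A count of 0 allows up to 3 counts, which is from 0.127 to 0.16 CPM per library. It was left out of the test.

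The V-ATPase consists of a V0 sector in the membrane, which carries the protons, and a V1 sector in the cytosol, which splits ATP. Atp6v0a1 (ENSMUSG00000019302, chr11:101009452-101063719, plus strand), one of several isoforms of the subunit that forms the proton path, stood at 529, 577 and 509 CPM in WT and at 595, 797 and 698 CPM in DKO. The groups did not overlap, but DKO 1 was close to WT 2, and the log2 fold change was 0.37 (± 0.13 SE with adjusted p = 0.195 by edgeR). In Atp6v1b2 and Atp6v1a, which form the ATP-splitting head, DKO 1 lay below WT 2. Atp6v1b2 stood at 674, 693 and 594 CPM in WT and at 664, 772 and 768 CPM in DKO, a log2 fold change of 0.17 (± 0.11 SE with adjusted p = 0.481 by edgeR). Atp6v1a stood at 689, 674 and 505 CPM in WT and at 597, 732 and 727 CPM in DKO, a log2 fold change of 0.14 (± 0.15 SE with adjusted p = 0.683 by edgeR). The groups overlapped for both. Atp6v0d1, which couples the sectors, and the accessory subunit Atp6ap1 had log2 fold changes of 0.09 (SE 0.09) and 0.04 (SE 0.09), and the latter turned below 0 with total-count scaling. Atp6v0d1 stood at 199.6, 203.7 and 174.9 CPM in WT and at 194.8, 203.6 and 218.6 CPM in DKO, with overlap. Without WT 3, the library lowest for Atp6v1b2, Atp6v1a and Atp6v0d1, the median of the 5 genes was 0.03 in place of 0.14, and the log2 fold change of Atp6v1a was 0.01.

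The rest of the pump was read from a list of all its subunits. Of 25 subunit genes 21 were tested, none was called, 16 lay above 0 and the median log2 fold change was 0.10. By CPM the 3 DKO libraries all lay above the 3 WT libraries for 7 of the 21, against 11.4% of all tested genes. They all lay below them for 0 of the 21, against 11.8%. In the V0 sector 8 of 9 lay above 0 (median 0.15) and in the V1 sector 6 of 10 (median 0.12). The smallest p of the list was that of Atp6v0e, a small V0 subunit, at 102, 122 and 109 CPM in WT and 141, 147 and 139 CPM in DKO. Its groups did not overlap, with a log2 fold change of 0.36 (± 0.08 SE with adjusted p = 0.0912 by edgeR, 0.0135 with DESeq2 and 0.045 without WT 2). Tcirg1, the a3 isoform of osteoclasts, stood at 20.4, 17.4 and 26.0 CPM in WT and 21.3, 21.0 and 21.8 CPM in DKO. On the FPKM scale Tcirg1 had 10.0 ± 3.24 in WT, next to 153 ± 9.25 for Atp6v0a1 (SD, n = 3 each). Atp6v0a4 and Atp6v1b1, subunits known from kidney intercalated cells, had at most 25 counts in any library and were not tested, and Atp6v1e2 and Atp6v1g3 had 0 counts in every library.

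**Figure D5:**
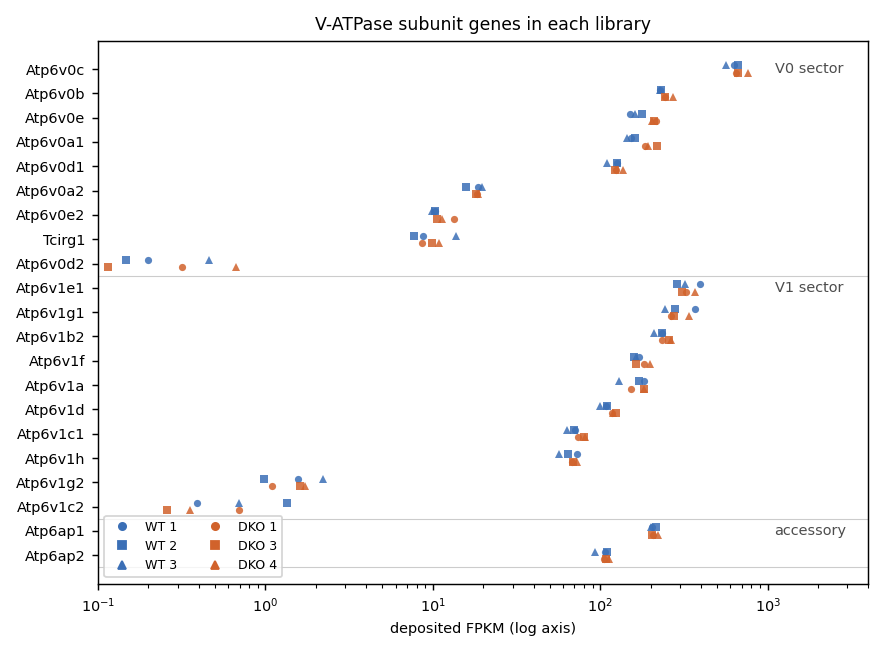
Deposited FPKM (log axis) of the 21 tested V-ATPase subunit genes in each library, by sector and then by level. Atp6v0a1 stands above its relatives Atp6v0a2 and Tcirg1, and in Atp6v0e and Atp6v0a1 the DKO libraries lie to the right of all WT libraries. By CPM the DKO libraries lay above all WT libraries for 7 of the 21 genes, against 11.4% of all tested genes.

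Clathrin, its adaptor and the endosomal Rab proteins showed no gene in which the groups separated. The largest difference was in Cltb, a clathrin light chain, at 95.2, 139 and 110.1 CPM in WT and at 102, 107 and 107 CPM in DKO. WT 2 was the highest and WT 1 the lowest of the 6 libraries, and the log2 fold change was -0.13 (± 0.13 SE with adjusted p = 0.659 by edgeR), and 0.03 without WT 2. Clta, the other light chain and the gene of this role with the highest FPKM, stood at 175, 199 and 158 CPM in WT and at 175, 178 and 172 CPM in DKO. Its log2 fold change was -0.02 (SE 0.09), and above 0 with upper-quartile scaling. Cltc, the heavy chain, had a log2 fold change of -0.06 (SE 0.13).

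Eea1, which tethers early endosomes, stood at 32.7, 32.7 and 29.9 CPM in WT and at 31.3, 30.9 and 28.8 CPM in DKO, a log2 fold change of -0.07 (± 0.08 SE with adjusted p = 0.707 by edgeR). Ap2a1, a large subunit of the plasma membrane adaptor AP-2, stood at 103, 108 and 103 CPM in WT and at 103, 115 and 105 CPM in DKO, a log2 fold change of 0.04 (SE 0.07) that turned below 0 with total-count scaling. For Ap2m1, the AP-2 subunit that binds cargo, it was -0.03 (SE 0.08). Rab5a of early endosomes, Rab7 of late endosomes and Rab11a of recycling endosomes had log2 fold changes of -0.02, 0.00 and 0.05. The 95% intervals of all 9 genes lay between -0.42 and 0.25.

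The 7 genes with TCACGTGA in their promoter had log2 fold changes of 0.05 (Ctsa), 0.05 (Ctsd), 0.33 (Gla), 0.03 (Mcoln1), 0.09 (Atp6v0d1), 0.14 (Atp6v1a) and -0.02 (Rab5a), and none was called. Of the factors that read this sequence, Tfeb stood at 22.4, 28.6 and 22.8 CPM in WT and at 25.2, 23.9 and 28.5 CPM in DKO, a log2 fold change of 0.07 (± 0.12 SE with adjusted p = 0.809 by edgeR). Tfe3 stood at 55.6, 49.0 and 54.0 CPM in WT and at 45.2, 49.1 and 49.9 CPM in DKO, a log2 fold change of -0.14 (± 0.08 SE with adjusted p = 0.396 by edgeR). Mitf had a log2 fold change of 0.20 (± 0.14 SE with adjusted p = 0.504 by edgeR). The groups overlapped for all 3 factors. RNA levels do not measure where these proteins sit in the cell.

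Beyond the 37 genes, 162 further genes of the same pathways were tested from 7 lists, and edgeR called none. At an unadjusted p below 0.05, 26 stood out, or 16.0%, of which 15 lay above and 11 below 0, next to 18.0% of all tested genes. The median log2 fold change of the 162 genes was 0.00. Of 32 other hydrolases 22 lay above 0, with a median of 0.04, lower than the 0.21 of the 13 hydrolases described here. Their smallest p was that of Aga, which cleaves sugar from asparagine, at 29.6, 26.2 and 25.6 CPM in WT and 32.3, 34.2 and 33.3 CPM in DKO (log2 fold change 0.29, ± 0.08 SE with adjusted p = 0.145 by edgeR). Ctsk, the cathepsin of osteoclasts, overlapped between the groups at 49.9, 27.6 and 67.6 CPM in WT and 78.2, 41.7 and 69.4 CPM in DKO. Of 9 osteoclast markers Ocstamp, Dcstamp, Oscar and Calcr stayed below 1 CPM in every library. Others were expressed, with Acp5 from 19.9 to 42.8 CPM in WT and from 25.1 to 30.3 CPM in DKO. Mmp9 ran from 16.5 to 33.0 CPM in WT and from 22.7 to 27.2 CPM in DKO. Itgb3 ran from 50.9 to 108 CPM in WT and from 59.8 to 95.4 CPM in DKO. The summed level of the 9 markers ran from 118 to 254 CPM in WT and from 183 to 225 CPM in DKO.

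Of these 32 other hydrolases 10 lay below 0, and Lipa and Galc, with the lowest fold changes, are given here after their values were seen. Lipa, the acid lipase that splits cholesteryl esters, stood at 113, 49.8 and 64.9 CPM in WT and at 54.6, 25.6 and 49.0 CPM in DKO, with overlap (log2 fold change -0.82, ± 0.35 SE with adjusted p = 0.278 by edgeR). Galc, which splits galactosylceramide, stood at 56.3, 35.6 and 38.4 CPM in WT and at 35.5, 27.1 and 29.1 CPM in DKO, without overlap (log2 fold change -0.51, ± 0.18 SE with adjusted p = 0.212 by edgeR). WT 2 was the lowest WT library for both.

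Of 29 other endocytosis genes 12 lay above and 17 below 0. Synj1, the lipid phosphatase that helps coated vesicles shed clathrin, had the smallest p, at 99.8, 73.9 and 82.2 CPM in WT and 62.8, 60.3 and 69.0 CPM in DKO. Its groups did not overlap (log2 fold change -0.41, ± 0.12 SE with adjusted p = 0.138 by edgeR). Dnm2, the dynamin that pinches vesicles off, had a log2 fold change of 0.11 (± 0.09 SE with adjusted p = 0.588 by edgeR). Of 28 other endosomal genes 12 lay above 0, with the smallest p for the sorting nexin Snx1 (log2 fold change 0.23, ± 0.07 SE with adjusted p = 0.148 by edgeR). Of 22 other membrane proteins and sorting receptors 8 lay above 0, and the amino acid sensor Slc38a9 had the smallest p (log2 fold change -0.23, ± 0.10 SE with adjusted p = 0.294 by edgeR). Of 18 genes of the TFEB family and mTORC1 11 lay above 0, with the smallest p for Lamtor1, which anchors mTORC1 to the lysosome (log2 fold change 0.19, ± 0.06 SE with adjusted p = 0.165 by edgeR). Of 17 autophagy genes 7 lay above 0, and Gabarapl1, which coats autophagosomes, had the smallest p (log2 fold change -0.25, ± 0.08 SE with adjusted p = 0.174 by edgeR).

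Reads from overlapping genes cannot be assigned with certainty in libraries without strand, and in GENCODE vM21 the exons of Ctsa, Ap2a1, Ctsb and Hexa share 17.4%, 16.7%, 12.8% and 12.8% of their bases with exons of other genes.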

How the data were processed

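RNA of mouse enamel organ cells was sequenced in 6 libraries, 3 DKO and 3 WT, with a TruSeq kit that does not mark strand, per the labels' protocols. The authors deposited raw counts for each Ensembl gene, with 1 table per library. They also deposited FPKM tables in the Cufflinks layout (fragments scaled to transcript length and library size), per the file headers. The submitters' processing notes name Trimmomatic 0.32, Cufflinks 2.2, HTSeq and GRCm38 but give no roles. The aligner, the annotation release and how reads were counted were not given in the sources used here.

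DKO was compared with WT over the whole table with edgeR 4.0.16 in R 4.3.3 (quasi-likelihood test), with TMM scaling, filterByExpr, no covariate and Benjamini-Hochberg adjustment over 14721 tested genes; genes with an adjusted p below 0.05 are called. CPM are counts scaled to the TMM library size. An SE is the log2 fold change over the square root of F. Total counts were 18609759 to 22829411 per library, so the 3 libraries per group set the precision. The 95% intervals of fold changes come from edgeR's SE and include the spread between libraries; the limit given for a count of 0 covers counting error only. No 2 libraries agreed within sampling noise (the smallest chi-square over its degrees of freedom was 14.1). DKO 1, WT 1 and WT 2 had Xist above 100 CPM, so sexes were mixed in both groups. Positions and exons are from GENCODE vM21, promoters from RefSeq.

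The genes and lists were chosen with earlier results of these data known, so no test over a list was made. Library values are printed for the 3 genes of each role with the smallest p, the gene with the highest FPKM, and Cd63, Lamp1, Lamp3, Cd68 and Ctss. Of the pathway lists they are printed for Aga, Atp6v0e and Synj1, each the first of its list by p, and for Tfeb, Tfe3, Tcirg1 and Ctsk. For Snx1, Slc38a9, Lamtor1 and Gabarapl1, the first of the other lists, and for Mitf and Dnm2, only the fold change and its test are given. Values of other genes among the 37 were added to show their spread. Of the pathway lists, 3 genes were not analysed here for want of a matching name. The marker lists were leukocyte, neutrophil, osteoclast, endothelium, mesenchyme, and secretory-stage and maturation-stage ameloblast. The keratins Krt14 and Krt5 stand for the epithelium; the summed level of the epithelial list is not reported here. Endothelial markers summed to 346 to 458 CPM in WT and 492 to 519.7 in DKO, mesenchymal markers to 6804 to 11227 and 10582 to 13132, and secretory-stage markers to 69889 to 139299 and 116430 to 181081. Alternatives were other scalings and filters, a replicate block, a term for Xist, the DESeq2 1.42.0 Wald test, limma 3.58.1 on log2(FPKM + 1) and log2(FPKM + 0.1), and each library left out. The limma fits dropped 9 genes whose FPKM status was not OK and 49 gene identifiers listed more than once, none among the 37. The test was run on simulated counts with known changes for 14508 genes before use.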

Additional observations from a re-analysis of the deposited data

How the results depend on the processing

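Each result was recomputed under 18 alternatives. For 30 named genes this gave 540 values, of which 505 kept the direction and the side of the threshold, 28 had the other direction without being called in either fit, and 7 were called. The number of genes called in the whole table was 153, and it was 554 without a low-count filter (312 higher, 242 lower), 71 with a term for the libraries with Xist above 100 CPM, 826 with DESeq2, 77 with limma on log2(FPKM + 1), 77 on log2(FPKM + 0.1), 11 on all genes with FPKM above 0, and 21 to 335 with each library left out. The count was 21 without DKO 4, 23 without DKO 3, 30 without WT 3, 84 without WT 1 and 335 without WT 2. Among the 37 genes 3 were called with DESeq2, 1 without the filter (Scarb2), and 0 to 2 with a library left out, the 2 being Scarb2 and Npc1 without WT 2. Of the pathway genes 1 was called with DESeq2 (Atp6v0e) and 0 to 2 with a library left out, the 2 being Atp6v0e and, lower at -1.24, Dnm3 without WT 2. Of Stim1 and Stim2, 1 was called with the Xist term, 1 with limma on all genes above 0 and 1 to 2 with a library left out. The cause was not tested.

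The libraries share only replicate numbers 1 and 3, and deviations from the group means correlated at 0.19 for number 1 and -0.018 for number 3, so the numbers were not taken to pair them. With a replicate block 328 genes were called (132 higher, 196 lower), none of the 37, and 1 pathway gene (Lipa, lower at -1.19). Under the block the hydrolase median was 0.12. Among the named genes the sign turned for Ctsd (-0.033), Psap (-0.092), Cltb (0.024), Clta (0.085), Tcirg1 (-0.13) and Ctsk (-0.018). Of the other genes among the 37, it turned for Lamp2 (0.0071), Ap2m1 (0.0005) and Rab5a (0.067).

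With total counts the median log2 fold change was 0.00095 over all the genes, 0.16 over the hydrolases and -0.038 over the membrane proteins, and the sign turned for Psap (-0.032), Lamp1 (-0.038), Ap2a1 (-0.0085) and Tcirg1 (-0.048). Among the named genes the sign also turned for Clta with upper-quartile scaling (0.0054), for Clta (0.027) and Tcirg1 (-0.058) with the Xist term, and for Ap2a1 in the 3 limma fits (-0.0038, -0.0039 and -0.0038). Of the other genes, Mcoln1 turned in the 3 limma fits (-0.033, -0.034 and -0.033). Rab5a, below 0 in the main fit, lay above 0 in 6 of the 19 fits, and Rab7 in 7. With a library left out the medians ran from 0.035 to 0.11 over all the genes, from 0.17 to 0.24 over the hydrolases, from -0.026 to 0.054 over the membrane proteins, from 0.034 to 0.23 over the V-ATPase genes and from -0.090 to 0.034 over the clathrin, adaptor and Rab genes. Of the named genes, those that then turned sign ran from -0.011 to 0.11 (Ctsd), -0.060 to 0.071 (Psap), -0.026 to 0.054 (Lamp1), -0.24 to 0.034 (Cltb), -0.0069 to 0.081 (Ap2a1), -0.090 to 0.073 (Clta), -0.0023 to 0.19 (Tfeb) and -0.12 to 0.18 (Tcirg1).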
